A study of Mus musculus with 6 samples.

Results

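The genes of glycolysis described here encode the enzymes that carry glucose to pyruvate and on to lactate, leaving out pyruvate kinase, and the transporters that let glucose into the cell and lactate out of it. They were chosen by symbol, as a fixed list of 38 mouse genes, and their rows were read from deposited tables of 23935 gene symbols. A row was found for 37 of the 38 and none for Hkdc1, a hexokinase-like gene. Of these, 35 passed edgeR's filter on low counts and were tested, while the fructose-1,6-bisphosphatase genes Fbp1 (2 to 8 counts per library) and Fbp2 (0 to 2 counts per library) did not pass. The comparison asked whether the level of these transcripts, and the isoenzyme used at each step, differed between macrophages with and without PKM2.

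RNA-seq of bone marrow-derived macrophages (BMDMs) from PKM2FL/FL and PKM2ΔMAC mice was used, with 3 libraries per genotype. The labels number the mice of each genotype from 1 to 3. This was read as 1 mouse per library, although the labels do not say whether marrow was pooled. PKM2FL/FL mice carry the floxed Pkm allele without Cre, and PKM2ΔMAC mice carry the same floxed allele together with LysM-Cre, a recombinase placed in the Lyz2 locus and active in macrophages and neutrophils. Marrow cells of both genotypes were cultured for 7 days with M-CSF, the macrophage growth factor, and both were then primed for 16 h (LPS, 10 ng/mL, with IFN-γ, 25 ng/mL), a treatment that drives macrophages towards the pro-inflammatory state called M1. The labels do not give the age of the mice. No library of mice with LysM-Cre alone and no library of cells without LPS and IFN-γ was analysed here, so LysM-Cre and the loss of PKM2 cannot be told apart.

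Glycolysis splits glucose into pyruvate in a chain of cytosolic reactions, and most of its steps can be run by several isoenzymes that are encoded by separate genes and differ in kinetics and regulation. Glucose enters by facilitative transporters of the Slc2a (GLUT) family and is trapped by hexokinases. Phosphofructokinase commits it to the pathway under the control of fructose-2,6-bisphosphate, which the PFKFB enzymes make and degrade. Macrophages activated by LPS are known to raise glucose uptake and lactate output, a switch in which the transcription factor HIF-1α acts on many of these genes and in which PKM2, an isoform of the last enzyme of the pathway, has been linked to HIF-1α.

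Total counts were between 49957449 and 54524651 per library, and levels within a gene are given as CPM, its counts divided by the library size after scaling with edgeR's TMM factors (0.98 to 1.04). A count of 3 was worth 0.0546 to 0.0604 CPM. Pkm, the targeted gene, was read at 1714, 1698 and 1706 CPM in PKM2FL/FL and at 987, 1212 and 1005 CPM in PKM2ΔMAC BMDMs, or -0.68 ± 0.08 (SE) on the log2 scale, with a Benjamini-Hochberg adjusted p of 0.00913 in the quasi-likelihood test of edgeR. Exons shared by PKM1 and PKM2 were counted with those that are not. Without any 1 of the PKM2FL/FL libraries the adjusted p of Pkm in that edgeR test was 0.0754 to 0.0993. Lyz2, the locus that holds Cre, was at 44825 to 49590 TPM in PKM2FL/FL and at 70.4 to 87.6 TPM in PKM2ΔMAC. The macrophage markers Csf1r (1825 to 2482 TPM), Adgre1 (1792 to 2635 TPM) and Cd68 (2174 to 2840 TPM) were abundant in every library. Of the 9 macrophage markers listed, Lyz2 was called lower and Itgam, which encodes the integrin CD11b found on macrophages and neutrophils, was called higher in PKM2ΔMAC (193 to 198 CPM in PKM2FL/FL and 253 to 272 CPM in PKM2ΔMAC; log2 fold change 0.43, adjusted p = 0.00272 by edgeR, Benjamini-Hochberg). Adgre1 was also higher in all 3 PKM2ΔMAC libraries without being called (log2 fold change 0.26, unadjusted p = 0.00443, adjusted p = 0.236 by the same test). Of 7 listed genes that LPS and IFN-γ are known to induce, Nos2 (0.031 to 0.40 TPM), Il6 (0.20 to 0.52 TPM) and Cxcl9 (0.50 to 1.15 TPM) were near 0 in every library and Acod1 (2.24 to 5.65 TPM) and Cd40 (5.99 to 9.06 TPM) were low. The other two were higher, with Gbp2 at 26.8 to 39.1 TPM and Tnf at 23.2 to 45.3 TPM, while Mrc1, a marker of alternative activation, was at 408 to 543 TPM. The libraries are therefore named by their label as given LPS and IFN-γ, and how far the cells had responded was not tested. The summed level of 8 neutrophil genes was 68.6 to 168 TPM in PKM2FL/FL and 323 to 659 TPM in PKM2ΔMAC, and that of 6 proliferation genes was 358 to 395 and 483 to 560 TPM, with all 14 log2 fold changes positive and none of these genes called. Markers of B cells (16.5 to 25.7 TPM), T and NK cells (9.29 to 19.4 TPM) and erythroid cells (4.58 to 10.9 TPM) summed to low levels in all libraries. The part of any of these cells, or of the differences in Itgam and Adgre1, in the values below was not tested. PKM2ΔMAC replicate 2 stood apart: it held the highest or the lowest CPM of the 6 libraries for 48.6% of all tested genes, against 27.4% to 36.8% for the other libraries.

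Together the 37 genes with a row made up between 0.53% and 0.57% of all TPM, the unit in which counts are scaled by gene length and library so that genes can be set side by side. Aldoa, the aldolase that splits fructose-1,6-bisphosphate, was at the top with 1113 to 1212 TPM. It was followed by Bsg (631 to 673 TPM), the chaperone that brings lactate transporters to the cell surface, and then by Ldha (556 to 617 TPM), Pgk1 (509 to 591 TPM), Eno1 (470 to 588 TPM) and Pgam1 (480 to 516 TPM). The ranges of neighbours in this order overlapped from Ldha to Pgam1, but within each of the 6 libraries Ldha was above Pgk1 and Pgk1 above Eno1, whereas the order of Eno1 and Pgam1 varied. Tpi1 (340 to 357 TPM), Gpi1 (226 to 262 TPM) and Hk3 (177 to 270 TPM) came next, and the ranges of Gpi1 and Hk3 overlapped. Other genes of the early steps and the transporters lay lower, with Pfkl at 62.1 to 71.5 TPM, Slc2a1 at 57.9 to 66.3 TPM, Hk1 at 55.0 to 64.1 TPM, Slc16a3 at 42.3 to 52.3 TPM and Hk2 at 40.4 to 51.2 TPM. At the bottom of the tested genes, Pfkfb1 was at 0.92 to 1.57 TPM.

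**Figure D1:**
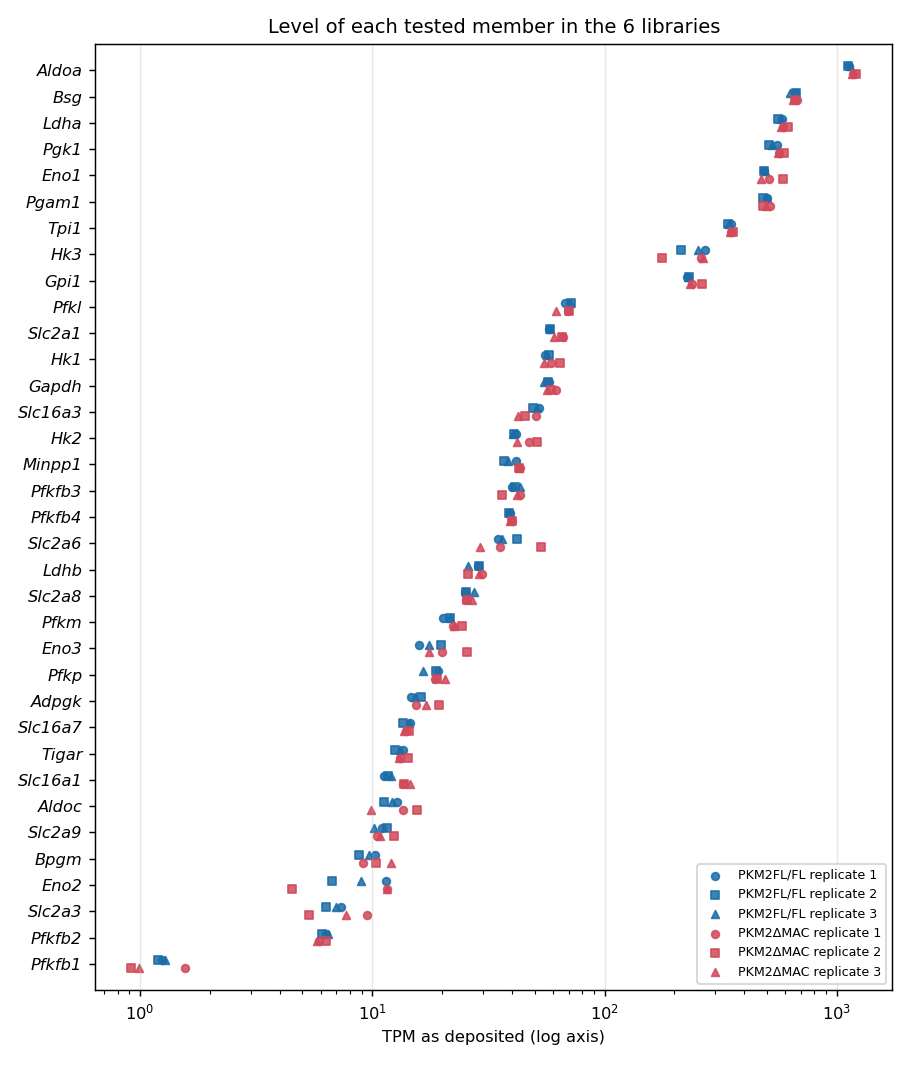
TPM of the 35 tested genes in each of the 6 libraries, on a log axis, ordered by their mean. Circles, squares and triangles are replicates 1, 2 and 3, blue for PKM2FL/FL and red for PKM2ΔMAC. The levels run from about 1 TPM for Pfkfb1 to 1212 TPM for Aldoa, and within nearly every gene the 6 points lie close together, with Eno2, Slc2a6, Slc2a3 and Pfkfb1 as the widest rows, each with the square of PKM2ΔMAC replicate 2 at an end.

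Gapdh, the glyceraldehyde-3-phosphate dehydrogenase that is commonly among the most abundant transcripts of a cell, was at only 54.9 to 61.6 TPM, below its neighbours in the pathway Tpi1 and Pgk1. In the GENCODE M21 transcripts, 82.5% of the 50-base words of the longest coding Gapdh transcript also occur in transcripts of 222 other genes, a comparison added after its level was seen. The same share was 72.2% for Eno1, 68.0% for Pgk1, 41.5% for Pgam1, 29.1% for Minpp1, 27.0% for Ldhb, 25.3% for Gpi1 and 25.1% for Pfkfb2. It was 17.1% for Pfkp, 16.7% for Ldha and 13.5% for Aldoa, and 0% for Slc16a1, Slc16a3, Hk2, Hk3, Slc2a3 and Bsg. How reads with several matches were counted is not given in the sources used here, and the part of such sequences in the levels of these genes was not tested. Levels between genes are thus uncertain for the genes with near-identical copies, whereas a comparison of genotypes within a gene uses the same sequence on both sides.

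None of the 35 tested genes differed between the genotypes when the p-values of the quasi-likelihood test of edgeR were adjusted by Benjamini-Hochberg over 16516 genes and a threshold of 0.05 was set, where 0.412% of all genes were called. DESeq2 and limma-trend on TPM also called 0 of them, where DESeq2 called 289 of 23935 genes and limma-trend called 32 to 41 genes over all. At an unadjusted p under 0.05 there were 3, the monocarboxylate transporters Slc16a3 and Slc16a1 and the phosphofructokinase Pfkl, where 9.83% of all genes passed this threshold. Of the 3, 1 was higher in PKM2ΔMAC (all genes, 5.24%) and 2 were lower (all genes, 4.60%). Their adjusted p-values were 0.387, 0.449 and 0.388. The groups of 3 libraries did not overlap in CPM for 4 of the 35 (Slc2a1 and Slc16a1 higher, Pfkl and Pfkfb2 lower in PKM2ΔMAC), against 17.2% of all genes, of which 8.92% were higher and 8.32% lower. In TPM, in which the median of all genes was 0.06 higher in PKM2ΔMAC on log2(TPM + 1), 8 did not overlap and were higher in PKM2ΔMAC (Slc2a1, Hk2, Gpi1, Pfkm, Aldoa, Pgk1, Minpp1 and Slc16a1; all genes, 19%) and 0 were lower (all genes, 3.15%), and Pfkl and Pfkfb2 overlapped. The log2 fold changes of the 35 ran from -0.21 to 0.19 with a median of -0.016, beside -0.0002 over all genes tested, and 21 of the 35 were negative (60.0%), beside 50.1% of all genes tested and 53.8% of those averaging 10 CPM or more. The share was 60.4% among 48 other genes around the pathway. For the 35 genes the median size without sign was 0.058, close to the 0.056 of all 9092 genes with a mean of at least 10 CPM. For 25 of the 35 the 95% interval of the fold change lay within 1.25-fold either way (71.4%), beside 46.5% of all genes tested. Among genes with a mean of at least 10 CPM it did so for 25 of 33 of the list (75.8%) and for 79.9% of all 9092. The intervals of the other 10 (Slc2a3, Slc2a6, Hk3, Pfkfb1, Aldoc, Bpgm, Eno2, Eno3, Slc16a1 and Slc16a3) were wider or lay further out, and held larger differences than this. In bulk libraries fewer cells of a type and less RNA per cell cannot be told apart.

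**Figure D2:**
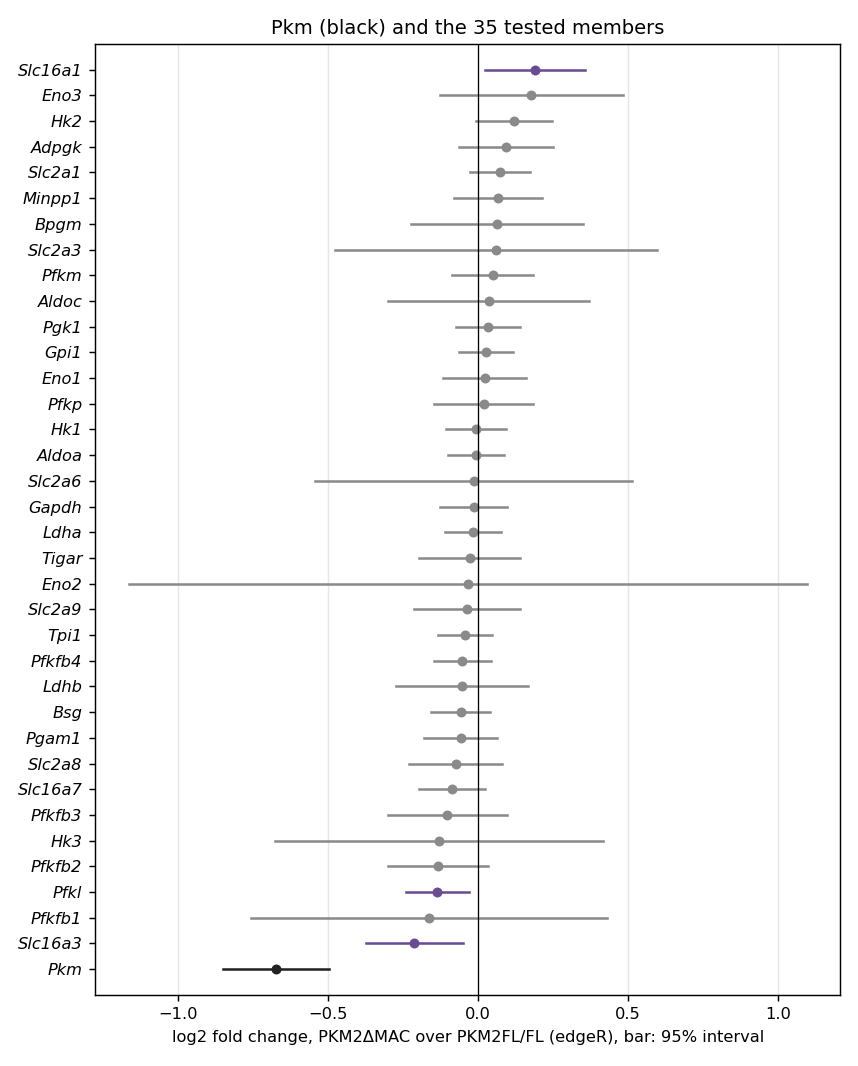
Log2 fold change of PKM2ΔMAC over PKM2FL/FL from edgeR for the 35 tested genes and for Pkm (black, bottom row), with bars for the 95% interval. Purple rows are the 3 genes with an unadjusted p under 0.05. Pkm lies at -0.68, while the points of the 35 genes lie between -0.21 and 0.19, and the bar of Eno2 is the widest.

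The 250 bases before the RefSeq start site are shown for the 3 genes with the smallest p and for Slc2a1 and Ldha, a glucose importer and a lactate-forming enzyme often read as HIF-1α targets, and were searched for ACGTG and GCGTG. These are the core letters bound by HIF-1α. Capitals mark these letters on either strand (CACGT and CACGC on the strand shown are the reverse strand of the motifs, and CACGTG counts once on each strand). The sequences are from RefSeq on GRCm38.p6, 5′ to 3′ along the gene. Where a gene had several start sites, the site nearest its GENCODE M21 5′ end was used. In GENCODE, Ldha, Slc16a3 and Pfkl begin further upstream, so their windows lie inside the annotated genes. The Slc2a1 window does so in part.
Slc16a3 promoter, chr11:120948817-120949066, plus strand: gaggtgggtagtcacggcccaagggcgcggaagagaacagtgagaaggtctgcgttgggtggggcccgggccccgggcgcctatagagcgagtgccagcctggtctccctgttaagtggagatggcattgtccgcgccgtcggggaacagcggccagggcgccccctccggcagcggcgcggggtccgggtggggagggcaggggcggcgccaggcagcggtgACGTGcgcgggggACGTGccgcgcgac
Slc16a1 promoter, chr3:104638414-104638663, plus strand: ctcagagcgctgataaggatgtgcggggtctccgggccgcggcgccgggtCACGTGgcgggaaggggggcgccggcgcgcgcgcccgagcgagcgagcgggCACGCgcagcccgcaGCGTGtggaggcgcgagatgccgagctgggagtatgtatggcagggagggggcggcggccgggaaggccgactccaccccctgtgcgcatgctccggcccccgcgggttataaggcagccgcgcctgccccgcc
Pfkl promoter, chr10:78009808-78010057, minus strand: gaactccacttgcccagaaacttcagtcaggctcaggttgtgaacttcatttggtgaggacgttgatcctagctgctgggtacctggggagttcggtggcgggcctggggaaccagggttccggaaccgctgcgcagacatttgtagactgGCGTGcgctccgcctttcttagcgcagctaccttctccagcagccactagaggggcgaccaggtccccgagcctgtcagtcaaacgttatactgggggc
Slc2a1 promoter, chr4:119108495-119108744, plus strand: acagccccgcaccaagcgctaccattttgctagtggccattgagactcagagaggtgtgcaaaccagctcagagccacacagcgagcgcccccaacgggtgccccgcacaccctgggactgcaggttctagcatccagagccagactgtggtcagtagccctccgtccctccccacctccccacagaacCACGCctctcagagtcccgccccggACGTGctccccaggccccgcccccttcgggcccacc
Ldha promoter, chr7:46845554-46845803, plus strand: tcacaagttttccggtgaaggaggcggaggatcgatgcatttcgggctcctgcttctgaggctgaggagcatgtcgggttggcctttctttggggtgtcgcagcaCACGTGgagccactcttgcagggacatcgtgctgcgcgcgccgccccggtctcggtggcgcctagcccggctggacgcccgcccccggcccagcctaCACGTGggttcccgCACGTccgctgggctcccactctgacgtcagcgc

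In these windows the Slc16a3 sequence held 2 matches, both ACGTG and within 27 bases of the start site, Slc16a1 held 4, Pfkl held 1, Slc2a1 held 2 and Ldha held 5. Of the 32 tested genes with a window, 24 held at least 1 match (75.0%), beside 55.0% of 11439 tested genes and 38.6% of all 32851 windows of this length. ACGTG alone was found in 34.4% of the 32 and in 21.2% of the tested genes. GC content was 56.8% in the median of the 32 windows and 59.6% in that of the tested genes. The median log2 fold change was -0.016 for the 24 genes with a match and -0.018 for the 8 without, both near 0. A match in a window is a string of letters and not a measured binding site.

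Among glucose transporters, Slc2a1 (GLUT1, the main basal importer of glucose, ENSMUSG00000028645, GRCm38 chr4:119108711-119137983, plus strand) was at 58.5, 57.4 and 58.5 CPM in PKM2FL/FL and at 64.0, 60.4 and 59.1 CPM in PKM2ΔMAC BMDMs. All 3 PKM2ΔMAC libraries were above all 3 PKM2FL/FL libraries, with the nearest pair less than 1 CPM apart. Its log2 fold change was 0.07 (SE 0.04), with an adjusted p of 0.644 by edgeR (Benjamini-Hochberg) and a p of 0.10 in a two-sided exact permutation test, the smallest that 3 libraries against 3 can give. Slc2a6 (GLUT6), Slc2a8 (GLUT8), Slc2a9 (GLUT9, chiefly a urate transporter) and Slc2a3 (GLUT3, a high-affinity glucose importer) had log2 fold changes between -0.08 and 0.06 and adjusted p-values from 0.784 to 0.990 by the same test. Slc2a3 and Slc2a6 varied most within PKM2ΔMAC. Slc2a3 was at 18.9, 10.1 and 15.6 CPM there and at 15.4, 12.9 and 14.4 CPM in PKM2FL/FL, and Slc2a6 was at 31.5, 45.0 and 26.0 CPM against 32.3, 38.1 and 33.4 CPM. Replicate 2 of PKM2ΔMAC was thus the lowest of the 6 libraries for Slc2a3 and the highest for Slc2a6. Without it, the value of Slc2a3 on the log2 scale was 0.28 (adjusted p = 0.263) and that of Slc2a6 was -0.26 (adjusted p = 0.296) in the quasi-likelihood test of edgeR (Benjamini-Hochberg).

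At the hexokinase step, which traps glucose as glucose-6-phosphate, Hk3 (chr13:55005985-55021385, minus strand) was the most abundant gene per length. Its values were 287, 220 and 267 CPM in PKM2FL/FL and 265, 170 and 272 CPM in PKM2ΔMAC, with replicate 2 the lowest of each genotype. Its log2 fold change was -0.13 (SE 0.21) with an adjusted p of 0.895 by edgeR (Benjamini-Hochberg), and without PKM2ΔMAC replicate 2 it was 0.058. Hk2, the inducible hexokinase that binds mitochondria, was at 71.8, 68.4 and 69.2 CPM in PKM2FL/FL and at 77.5, 80.1 and 69.7 CPM in PKM2ΔMAC. The ranges overlapped, and its log2 fold change was 0.12 (SE 0.06, 95% interval -0.0091 to 0.24), with an unadjusted p of 0.0650 and an adjusted p of 0.539 in the quasi-likelihood test of edgeR (Benjamini-Hochberg). Hk1, the widely expressed hexokinase, had a log2 fold change of -0.0070 and lay between 130 and 143 CPM in all libraries. Adpgk, an ADP-dependent glucokinase of the endoplasmic reticulum, was at 40.7 to 49.0 CPM with a log2 fold change of 0.09.

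Gpi1, the isomerase that turns glucose-6-phosphate into fructose-6-phosphate, was among the steadiest of the genes, at 420, 419 and 423 CPM in PKM2FL/FL and 424, 443 and 418 CPM in PKM2ΔMAC (log2 fold change 0.025, SE 0.04). Phosphofructokinase carries out the committed step. Its liver-type subunit gene Pfkl (ENSMUSG00000020277, chr10:77986947-78010083, minus strand) was at 131, 135 and 137 CPM in PKM2FL/FL and at 128, 123 and 115 CPM in PKM2ΔMAC. Every PKM2ΔMAC library was below every PKM2FL/FL library, and replicates 1 of the 2 genotypes lay closest. The log2 fold change was -0.14 (SE 0.05, 95% interval -0.24 to -0.031, unadjusted p = 0.0170), with an adjusted p of 0.388 from the quasi-likelihood test of edgeR (Benjamini-Hochberg). Over 17 other settings its log2 fold change lay between -0.17 and -0.065 and its adjusted p between 0.205 and 0.771. The muscle-type Pfkm (19.5 to 21.3 CPM, log2 fold change 0.05) and the platelet-type Pfkp (63.9 to 76.9 CPM, log2 fold change 0.018) had values that overlapped between genotypes. Pfkm and Pfkp lie over Senp1 and Pitrm1 on the other strand, which held 12117 and 17688 counts over the 6 libraries against 6437 for Pfkm and 22050 for Pfkp, and whether reads were assigned by strand is not given in the sources used here.

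Of the bifunctional enzymes that set fructose-2,6-bisphosphate, the strongest known activator of phosphofructokinase, Pfkfb3 was at 87.0, 87.8 and 93.4 CPM in PKM2FL/FL and at 90.1, 71.9 and 87.8 CPM in PKM2ΔMAC. Only PKM2ΔMAC replicate 2 lay clearly below the other 5 libraries, and the log2 fold change was -0.10 (SE 0.09), with an adjusted p of 0.767 by edgeR (Benjamini-Hochberg). Pfkfb2 was at 13.2, 12.5 and 13.4 CPM against 11.8, 12.0 and 11.7 CPM, without overlap (log2 fold change -0.14, SE 0.07, adjusted p = 0.597 by edgeR (Benjamini-Hochberg), exact permutation p = 0.10). It overlaps Yod1 on the other strand, which held 3774 counts over the 6 libraries against its own 3900. Pfkfb4 (50.9 to 55.1 CPM), Pfkfb1 (0.97 to 1.73 CPM) and Tigar (12.9 to 14.3 CPM), a phosphatase that lowers fructose-2,6-bisphosphate, had log2 fold changes of -0.05, -0.16 and -0.029. Pfkfb1 overlaps Apex2 on the other strand, which held 2973 counts over the 6 libraries against its own 422, so its value is uncertain. Fbp1 and Fbp2, which run the opposite reaction of gluconeogenesis, were at most 0.15 and 0.039 CPM.

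The steps from aldolase to enolase, which yield ATP and NADH, held 5 of the 7 most abundant genes of the list. Aldoa was at 949, 913 and 956 CPM in PKM2FL/FL and at 941, 924 and 938 CPM in PKM2ΔMAC, a log2 fold change of -0.0078 (SE 0.04). Tpi1, which interconverts the triose phosphates, was at 279, 264 and 270.0 CPM against 265, 257 and 266 CPM (log2 fold change -0.04). Gapdh was at 68.8, 66.8 and 65.1 CPM against 70.2, 63.4 and 64.9 CPM (log2 fold change -0.016, SE 0.05). Gapdh and Tpi1 overlap Iffo1 and Spsb2 on the other strand, which held 12645 and 8720 counts over the 6 libraries against 20877 for Gapdh and 83752 for Tpi1. The 6 values of Aldoa, Tpi1 and Gapdh each spanned at most 1.11-fold from lowest to highest, and the genotypes overlapped. Pgk1, the phosphoglycerate kinase that makes the pathway's first ATP, was at 359, 322 and 339 CPM against 349, 347 and 347 CPM (log2 fold change 0.032). Pgam1, the phosphoglycerate mutase, was at 285, 269 and 283 CPM against 282, 249 and 273 CPM (log2 fold change -0.06). Eno1, the main enolase, was at 755, 739 and 758 CPM against 755, 828 and 702 CPM (log2 fold change 0.021, SE 0.06). The PKM2FL/FL values of Eno1 differed by under 20 CPM, whereas replicates 2 and 3 of PKM2ΔMAC were the highest and the lowest of the 6. Adjusted p-values of these 6 genes by edgeR (Benjamini-Hochberg) were between 0.782 and 0.972.

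Less abundant genes of these steps were Aldoc, Eno2 and Eno3, isoforms best known from brain and muscle, Bpgm, which makes 2,3-bisphosphoglycerate, and Minpp1, which can degrade it. Eno2 had the widest spread of the 35, at 15.5, 8.93 and 12.0 CPM in PKM2FL/FL and at 15.1, 5.57 and 15.1 CPM in PKM2ΔMAC. In each genotype replicate 2 was the lowest, and the log2 fold change was -0.035 (SE 0.44, 95% interval -1.17 to 1.10). Eno3 had the largest positive log2 fold change after Slc16a1, 0.18 (SE 0.13, adjusted p = 0.731 by edgeR (Benjamini-Hochberg)), with 7.94, 9.66 and 8.72 CPM against 9.61, 11.7 and 8.48 CPM that overlapped. Aldoc (8.95 to 13.4 CPM), Bpgm (8.85 to 12.0 CPM) and Minpp1 (27.9 to 32.1 CPM) had log2 fold changes between 0.035 and 0.07.

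Lactate dehydrogenase turns pyruvate into lactate and restores NAD+. Ldha (ENSMUSG00000063229, chr7:46841475-46855627, plus strand), which encodes the subunit that favours lactate formation, was at 554, 519 and 544 CPM in PKM2FL/FL and at 535, 535 and 526 CPM in PKM2ΔMAC. The PKM2ΔMAC values lay inside the range of PKM2FL/FL. Its log2 fold change was -0.018 (SE 0.04, 95% interval -0.11 to 0.08), with an adjusted p of 0.932 by the quasi-likelihood test of edgeR (Benjamini-Hochberg). In fold terms the interval ran from 0.925 to 1.05. Ldhb, which encodes the other subunit, was at 10.6 to 12.9 CPM with a log2 fold change of -0.05.

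Lactate leaves the cell through monocarboxylate transporters, and the largest differences of the list were among these. Slc16a3 (MCT4, the exporter typical of glycolytic cells, ENSMUSG00000025161, chr11:120948480-120960868, plus strand) was at 80.2, 73.8 and 78.3 CPM in PKM2FL/FL and at 74.5, 63.5 and 62.4 CPM in PKM2ΔMAC. Replicates 2 and 3 of PKM2ΔMAC were below every PKM2FL/FL library, and replicate 1 lay between PKM2FL/FL replicates 2 and 3. Its log2 fold change was -0.21 (SE 0.07, 95% interval -0.38 to -0.05, unadjusted p = 0.0166), and its adjusted p was 0.387 in the quasi-likelihood test of edgeR (Benjamini-Hochberg) (exact permutation p = 0.20). Slc16a1 (MCT1, which moves lactate in either direction, ENSMUSG00000032902, chr3:104638668-104658462, plus strand) was at 14.3, 14.6 and 15.3 CPM against 16.6, 16.0 and 17.8 CPM, without overlap. Its log2 fold change was 0.19 (SE 0.07, 95% interval 0.022 to 0.35, unadjusted p = 0.0308), and its adjusted p was 0.449 by the quasi-likelihood test of edgeR (Benjamini-Hochberg) (exact permutation p = 0.10). Over the 17 other settings, Slc16a3 kept a negative value (-0.30 to -0.14, adjusted p 0.119 to 0.758) and Slc16a1 a positive value (0.14 to 0.26, adjusted p 0.234 to 0.761). Slc16a7 (MCT2, a high-affinity carrier) was at 49.5, 45.2 and 48.8 CPM against 45.4, 44.8 and 45.0 CPM (log2 fold change -0.09). Bsg was at 347, 342 and 328 CPM against 337, 314 and 326 CPM (log2 fold change -0.06, SE 0.04, adjusted p = 0.723 by edgeR (Benjamini-Hochberg)).

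**Figure D3:**
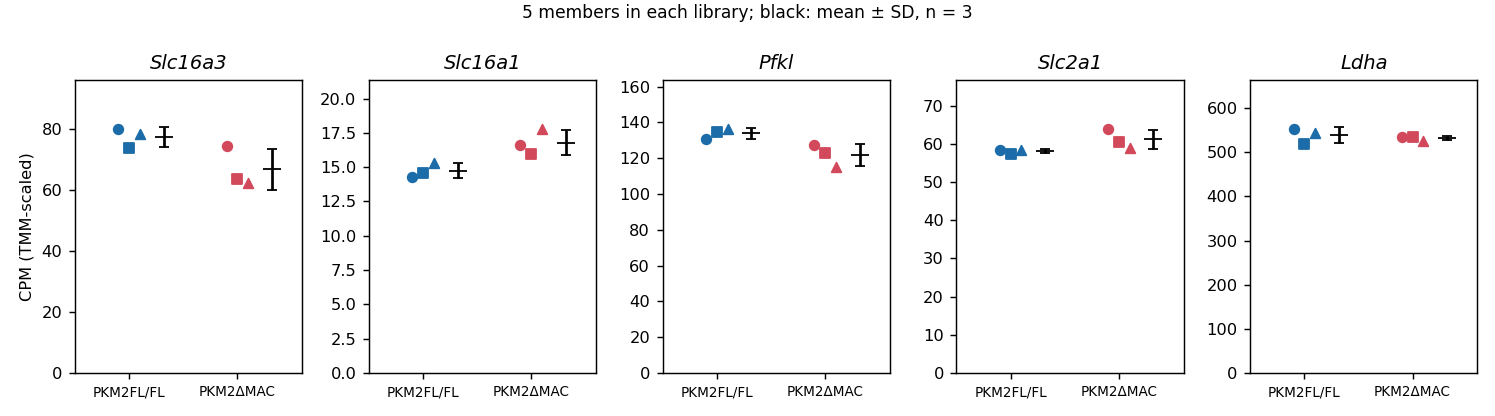
CPM of Slc16a3, Slc16a1, Pfkl, Slc2a1 and Ldha in each library, each panel with its own axis from 0, with black bars for the mean ± SD (n = 3). Circles, squares and triangles are replicates 1, 2 and 3. The groups do not overlap for Slc16a1, Pfkl and Slc2a1, and overlap for Slc16a3 and Ldha. No panel holds a difference with an adjusted p under 0.05.

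The share of each isoenzyme in the summed TPM of the listed genes of its step was computed for 26 genes in 8 steps. At 3 steps a single gene held nearly all transcripts of the listed genes. Aldoa held 98.7% to 99.2% of aldolase, Ldha 95.1% to 96.0% of lactate dehydrogenase and Eno1 94.1% to 95.1% of enolase. Eno1b is not in the enolase sum, although its TPM was above that of Eno2 and of Eno3 in every library. With Eno1b in the sum the share of Eno1 would be lower. Hk3 held 56.7% to 70.7% of glucose phosphorylation, ahead of Hk1 (14.5% to 20.6%), Hk2 (10.9% to 16.4%) and Adpgk (3.85% to 6.25%). Pfkl held 59.1% to 65.2% of phosphofructokinase, with Pfkm at 18.9% to 21.4% and Pfkp at 15.2% to 19.6%. Pfkfb3 (43.5% to 47.8%) and Pfkfb4 (43.7% to 47.8%) held about the same share of the PFKFB genes, with Pfkfb4 ahead in PKM2ΔMAC replicate 2 and Pfkfb3 in the other libraries. Slc2a1 held 40.5% to 45.0% of the glucose transporters listed, followed by Slc2a6 (21.6% to 32.9%) and Slc2a8 (15.7% to 19.9%). In monocarboxylate transport, Slc16a3 held 60.0% to 67.0%, Slc16a7 17.7% to 19.6% and Slc16a1 14.4% to 20.6%. Slc16a6 is not in this sum, although its TPM was above that of Slc16a7 and of Slc16a1 in every library. With Slc16a6 in the sum these shares would be lower. The leading gene of a step was thus the same in all 6 libraries at 7 of the 8 steps, the exception being the PFKFB genes. Gene lengths behind the TPM values differ from those of the longest GENCODE transcript, so shares depend on the lengths the authors used. Relative to Ldha, Pfkp was given a length of 4.05 (2.28 by longest transcript) and Pfkm a length of 1.01 (1.59). In CPM, Pfkp (63.9 to 76.9) was above Pfkm (19.5 to 21.3), so the order of their shares rests on these lengths.

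Between the genotypes, 4 of the 26 shares (15.4%) did not overlap, in 2 of the 8 steps. This is near the 17.2% of all tested genes whose groups did not overlap in CPM, a different measure. The share of Slc16a3 was 66.4% ± 0.58 (SD, n = 3) in PKM2FL/FL and 62.2% ± 2.46 (SD, n = 3) in PKM2ΔMAC, a difference of -4.17 percentage points, and that of Slc16a1 was 15.2% ± 0.73 and 18.9% ± 1.61, a difference of 3.68 points. For Pfkl the share was 64.1% ± 0.99 and 61.3% ± 1.96, a difference of -2.80 points, and for Pfkm it was 19.3% ± 0.41 and 21.0% ± 0.67, a difference of 1.70 points. Shares of a step add up to 100%, so the members of such a pair are not independent of each other. Each of these 4 gave p = 0.10 in a two-sided exact permutation test, the smallest possible, and an adjusted p of 0.650 over the 26 shares. The shares of Hk3 (68.3% ± 3.00 and 65.0% ± 7.22) and Slc2a1 (41.6% ± 1.03 and 43.4% ± 2.57) overlapped. Those of Aldoa, Eno1 and Ldha differed by at most 0.33 points.

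**Figure D4:**
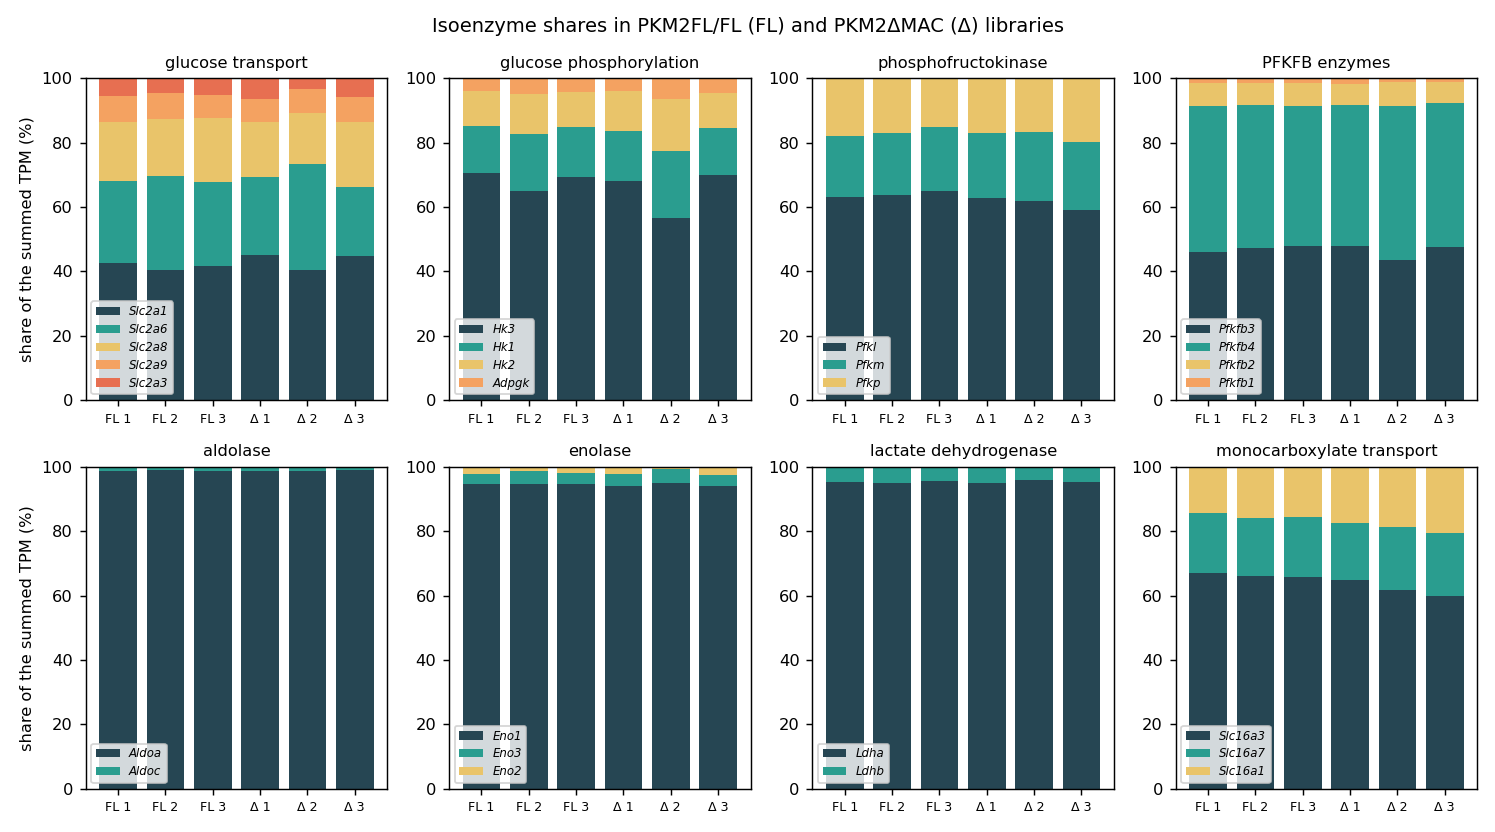
Share of each gene in the summed TPM of the listed genes of its step (%), stacked to 100% for each library, in 8 panels. Eno1b and Slc16a6 are not in the sums. FL 1 to 3 are the PKM2FL/FL and Δ 1 to 3 the PKM2ΔMAC libraries. Aldoa, Eno1 and Ldha fill over 94% of their bars, Hk3 is the bottom segment of glucose phosphorylation and is smallest in Δ 2 at 56.7%, and the Slc16a3 segment is between 60.0% and 67.0%.

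The spread within a genotype was small for most genes. The coefficient of variation of CPM had a median of 3.89% over the 35 genes in PKM2FL/FL and 5.65% in PKM2ΔMAC, and it was larger in PKM2ΔMAC for 25 of the 35 (71.4%), beside 63.3% of all genes tested. PKM2ΔMAC replicate 2 was the highest (9 genes) or the lowest (13 genes) library for 22 of the 35, which is 62.9%, beside the 48.6% of all genes given above. The PKM2FL/FL libraries held such an end for 17, 9 and 6 of the 35 (all genes, 29.6%, 29.0% and 28.6%), and replicates 1 and 3 of PKM2ΔMAC for 5 and 11 (all genes, 27.4% and 36.8%). PKM2ΔMAC replicate 2 was the lowest library for Eno2, Hk3, Slc2a3, Pfkfb3 and Pfkfb1 and the highest for Slc2a6, Eno1, Eno3 and Aldoc. For 11 of the 35 genes replicate 2 was the lowest within both genotypes, Hk3, Eno2 and Slc2a3 among them (all genes, 16.5%), and for 5 it was the highest in both (all genes, 16.1%). This library also had the highest summed level of proliferation markers (560 TPM), of the 7 genes induced by LPS and IFN-γ (98.8 TPM, against 63.1 to 78.4 TPM in the others), of B cell markers (25.7 TPM) and of the macrophage markers other than Lyz2 (9320 TPM). Of the 7 genes, Tnf (45.3 TPM, against 23.2 to 27.0 TPM), Il6 and Cxcl9 were highest in this library, and the others were not. Most of the B cell sum was Ebf1 (20.8 TPM), while Cd79a and Ms4a1 were lowest here. The macrophage markers Cd68, Mertk and Mrc1 were also lowest here. PKM2ΔMAC replicate 2 had the lowest sum of T and NK cell markers (9.29 TPM), nearly all of it Cd4 (8.88 TPM). It also had the lowest neutrophil sum of its genotype (323 TPM, against 469 and 659 TPM) and the highest Pkm of its group. The part of these in its values of the glycolytic genes was not tested. Without it, 5 of the 35 genes had an unadjusted p under 0.05 (Pfkl, Slc16a1, Slc16a3, Slc2a3 and Slc2a6), beside 13.3% of the 16913 genes tested in that setting, and 0 were called. Their adjusted p-values by edgeR (Benjamini-Hochberg) were 0.205 to 0.362, while the number of calls over all genes went from 68 to 299.

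**Figure D5:**
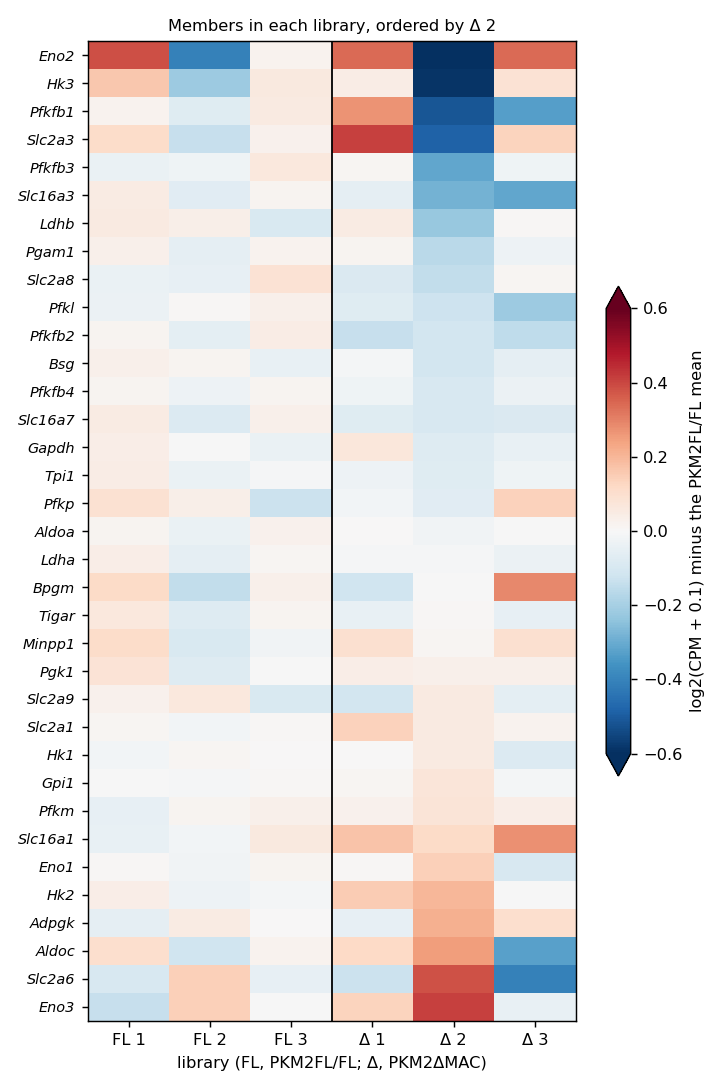
Log2(CPM + 0.1) of the 35 tested genes in each library minus the PKM2FL/FL mean, from blue (lower) to red (higher), with rows ordered by PKM2ΔMAC replicate 2 (Δ 2) and colours ending at 0.6 either way. The column of Δ 2 holds the deepest blue cells (Eno2 and Hk3), the deepest red cells are those of Eno3 and Slc2a6 in Δ 2, Slc2a3 in Δ 1 and Eno2 in FL 1, and FL 2 shows a paler version of the same for Eno2, Hk3 and Slc2a6. The middle rows, among them Aldoa, Ldha and Pgk1, are near white in every column.

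The summed TPM of the list was 5396 ± 81.1 (SD, n = 3) in PKM2FL/FL and 5595 ± 129 (SD, n = 3) in PKM2ΔMAC (two-sided exact permutation p = 0.20). TPM values of a library add up to a fixed total, and Lyz2 alone took 44825 to 49590 of it in PKM2FL/FL. On log2(TPM + 1) the median of all genes was 0.06 higher in PKM2ΔMAC, and after leaving out Lyz2 and rescaling it was -0.0023. As a share of raw counts, the list made up 0.51% to 0.52% in PKM2FL/FL and 0.51% to 0.53% in PKM2ΔMAC.

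Around these steps, 63 other genes were listed, of pyruvate kinase, further transporters, gluconeogenesis, glycogen, fructose and galactose use, pyruvate entry into mitochondria and regulators of the pathway. A row was found for 57, and 48 were tested. Pkm alone was called, and 5 more had an unadjusted p under 0.05, beside the 9.83% of all genes. Pklr, the liver and erythrocyte pyruvate kinase gene, was at most 0.042 TPM. Slc37a4, the glucose-6-phosphate carrier of the endoplasmic reticulum, was at 15.9, 14.7 and 15.0 CPM in PKM2FL/FL and at 12.4, 13.8 and 11.9 CPM in PKM2ΔMAC (log2 fold change -0.26, adjusted p = 0.355 by edgeR (Benjamini-Hochberg)). G6pc3, the phosphatase of the same route, was at 20.8, 20.7 and 22.0 CPM against 23.5, 23.1 and 25.5 CPM (log2 fold change 0.18, adjusted p = 0.400 by edgeR (Benjamini-Hochberg)). The others were Gbe1, the glycogen branching enzyme (log2 fold change 0.21), Gpd1, the glycerol-3-phosphate dehydrogenase (0.70), and Khk, the fructokinase (-0.19). Gpd1 was at 1.65, 1.83 and 2.03 CPM in PKM2FL/FL and at 3.34, 2.00 and 3.61 CPM in PKM2ΔMAC, where replicate 2 alone lay within the range of PKM2FL/FL. Without PKM2ΔMAC replicate 2 it was called, at 0.92 on the log2 scale (SE 0.19, adjusted p = 0.0313 by edgeR (Benjamini-Hochberg)). Hif1a, which encodes HIF-1α, was at 212 CPM in the mean of PKM2FL/FL and 201 CPM in that of PKM2ΔMAC (log2 fold change -0.07, adjusted p = 0.699 by edgeR (Benjamini-Hochberg)). Txnip, a sensor of glucose that restrains its uptake, had a log2 fold change of 0.11 and an adjusted p of 0.678 in that test.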

How the data were processed

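RNA of 6 BMDM cultures (SMARTer kit) was sequenced by the authors. The submitters' processing notes name FastQC 0.12.1, Trim Galore 0.6.10, HISAT2 2.2.1, SAMtools 1.19.2, Subread 2.0.6 and mm10 (GRCm38), while the annotation, strand setting and treatment of reads with several matches are not given in the sources used here. Raw counts for each gene symbol and TPM of the same genes were deposited by the authors. Counts were compared with edgeR 4.0.16 (R 4.3.3, limma 3.58.1), using filterByExpr, TMM and the robust quasi-likelihood test on genotype, with Benjamini-Hochberg adjustment over 16516 genes and calls at an adjusted p under 0.05. The SE was |log2 fold change| over the root of the F statistic. The functions were tested on simulated data. Shares of TPM and log2(CPM + 0.1) were compared by two-sided exact permutation tests. Libraries of a genotype differed beyond sampling noise (chi-square per degree of freedom 7.55 to 53.8) and each was kept as a replicate. Counting error weighs most on genes of few counts, such as Pfkfb1 (53 to 92 counts per library). Positions are from GENCODE M21 and promoters from RefSeq, both on GRCm38. Values per library were to be given for genes with an adjusted or unadjusted p under 0.05, the most abundant gene of each step, Slc2a1 and Ldha, and the others so given were chosen after their values were seen. Alternatives were other scaling factors, DESeq2 1.42.0, other filters, non-robust estimation, a replicate block, each library left out, and limma-trend on TPM. The genes, lists and tests were chosen with earlier results of these data known, and the setting without Lyz2 was added after the values were seen.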

Additional observations from a re-analysis of the deposited data

How the results depend on the processing

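In every one of the 17 alternatives 0 of the tested glycolytic genes were called, where 22 to 299 genes were called over all. The smallest adjusted p of any of the glycolytic genes was 0.119 (Slc16a3, the quasi-likelihood test of edgeR without PKM2ΔMAC replicate 1). The sign was the same in all 17 for 14 genes, Slc16a3, Slc16a1, Pfkl, Slc2a1 and Hk2 among them, and changed in at least 1 for 21. Of the 21, Slc2a9, Pfkfb4, Tpi1, Pgam1 and Bsg changed sign only in the 3 settings on TPM as deposited. The others did so in at least 1 setting with a library left out. The number of genes with an unadjusted p under 0.05 was 3, where 9.83% of all genes passed. With a library left out it lay between 1 (without PKM2FL/FL replicate 1 or 3, or without PKM2ΔMAC replicate 3) and 5 (without PKM2ΔMAC replicate 2). All genes moved too, with 13.3% passing without PKM2ΔMAC replicate 2, a share not computed for the other settings. Calls over all genes went from 68 to between 22 (without PKM2FL/FL replicate 3) and 299 (without PKM2ΔMAC replicate 2). The number of other pathway genes called was 1, and between 0 (without any PKM2FL/FL library) and 2 (without PKM2ΔMAC replicate 2) with a library left out, and 0 in each of the 4 limma-trend settings on TPM. Pkm was called in 10 of the 17 and not in those that gave 0, and its log2 fold change stayed between -0.78 and -0.61. The median of the list was 0.055 in the 3 settings on TPM as deposited, which carry the shift of all genes of 0.05 to 0.07, and -0.015 with Lyz2 left out. It was 0.0025 without PKM2FL/FL replicate 1 and 0.0011 without PKM2ΔMAC replicate 2.

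Signs also turned on TPM, with the pseudocount of 1 (same value with and without the filter) and of 0.1. The log2 fold changes were 0.022 and 0.022 for Slc2a6, 0.032 and 0.034 for Slc2a9, 0.063 and 0.064 for Hk1, 0.018 and 0.019 for Pfkfb4, and 0.042 and 0.044 for Tigar. They were 0.065 and 0.065 for Aldoa, 0.029 and 0.029 for Tpi1, 0.055 and 0.056 for Gapdh, and 0.012 and 0.012 for Pgam1. They were 0.055 and 0.055 for Ldha, 0.014 and 0.015 for Ldhb, and 0.014 and 0.014 for Bsg. None of these turned once Lyz2 was left out and the libraries rescaled. With a library left out, the ranges were -0.15 to 0.28 for Slc2a3, -0.26 to 0.15 for Slc2a6, -0.038 to 0.028 for Hk1, -0.25 to 0.058 for Hk3, -0.046 to 0.066 for Pfkp, and -0.46 to 0.0033 for Pfkfb1. They were -0.068 to 0.0039 for Tigar, -0.028 to 0.0044 for Aldoa, -0.085 to 0.19 for Aldoc, -0.060 to 0.015 for Gapdh, -0.0057 to 0.073 for Pgk1, and -0.065 to 0.15 for Bpgm. They were -0.042 to 0.076 for Eno1, -0.24 to 0.31 for Eno2, -0.044 to 0.0025 for Ldha, and -0.11 to 0.028 for Ldhb. The cause was not tested.

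The labels number the mice of both genotypes from 1 to 3. Libraries with the same number had deviations from their group means that correlated at 0.07, 0.12 and 0.011. Of the 6 libraries, 5 correlated best with the library of their own number, and PKM2ΔMAC replicate 3 did so with PKM2FL/FL replicate 1 (0.056). This count comes from the data and not the design. Each library must have a best match, and the 5 matches reuse the same pairs, so the count cannot decide whether the libraries were paired. Not every pair was above 0.1, so the libraries were taken to share only a number. With the number as a replicate block in edgeR, 82 genes were called over all and 0 of the list, with a median log2 fold change of -0.017 for the list and an adjusted p of 0.179 for Slc16a3.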
